A study of Mus musculus with 6 samples.

Results

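Inhibitory checkpoint receptors are surface proteins that restrain T cells, and the 9 genes followed here encode the best known of them: Ctla4, Pdcd1, Lag3, Havcr2, Tigit, Btla, Cd160, Cd200 and Cd5. They were chosen by name, with earlier results of these data known, and each of the 9 was found among the 25759 gene identifiers of the table. RNA was sequenced from adaptive Treg cells of mice (aTreg), which are CD4 T cells that gain the transcription factor Foxp3 when activated with TGF-beta. There were 3 BMPR1a-deficient and 3 wild type (WT) libraries, and the comparison asks how these cells differ without BMPR1a, a receptor for bone morphogenetic proteins. BMPR1a-deficient cells came from mice of the C57BL/6 strain labelled BMPR/CD4cre, in which a CD4-driven Cre removes the receptor, so the loss covers all cells that ever expressed CD4 and not aTreg alone. WT cells came from C57BL/6 mice with no Cre named in the labels. Mice of both groups were 8 to 12 weeks old and carried a Foxp3-GFP reporter. Cells of lymph nodes and spleen from both groups were activated in culture over 3 days. The lectin concanavalin A (ConA, 2 µg/ml) was the stimulus, with 3 ng/ml of TGF-beta and 10 ng/ml of the cytokine IL-2. Cells positive for CD4 and GFP were then sorted. Cells that carried Foxp3 before the culture pass this sort as well.

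Some of these proteins, among them those of Pdcd1 and Btla, carry tyrosine-based motifs in their cytoplasmic tails. Through these motifs they bring phosphatases such as SHP-1 and SHP-2 to the T cell receptor. Others act by taking a ligand away from an activating receptor: CTLA-4 binds CD80 and CD86 more tightly than the costimulatory receptor CD28 does, and TIGIT competes with CD226 for the poliovirus receptor. Several are induced by activation itself, and CTLA-4 is also a mediator of suppression by regulatory T cells. Cd200 stands apart in the group, since CD200 acts mainly as a ligand that restrains myeloid cells through their receptor CD200R1.

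Levels are in FPKM, in which fragment numbers are divided by transcript length and library depth, and this allows levels of different genes to be set side by side. A fold change here is the BMPR1a-deficient mean of log2(FPKM + 1) less the WT mean. On that scale the change of a low gene is understated. The table holds no counts. The smallest steps in its values pointed to about 29500000 to 37200000 fragments per library, an approximate figure. The CD4 T cell and aTreg markers Cd4, Cd3e, Foxp3 and Il2ra were detected in all 6 libraries, and their summed FPKM was 665 to 798 in BMPR1a-deficient and 647 to 685 in WT libraries. Within that sum, Cd3e was at 118, 259 and 252 FPKM in BMPR1a-deficient and 225, 194 and 218 FPKM in WT libraries. Cd4 was at 436, 349 and 351 FPKM in BMPR1a-deficient and 341, 329 and 359 FPKM in WT libraries. BMPR1a-deficient replicate 1 was thus the lowest of the 6 libraries for Cd3e and the highest for Cd4. Bmpr1a itself was at 0.439, 0.720 and 0.691 FPKM in BMPR1a-deficient and at 1.39, 2.34 and 1.31 FPKM in WT aTreg, with no overlap, though its log2 fold change of -0.71 did not pass the threshold used below (limma adjusted p = 0.183). BMPR1a-deficient replicate 1 stood apart: its 13 mitochondrially encoded messages summed to 5335 FPKM, against 44657 and 44713 in replicates 2 and 3 of that group and 50442 to 53789 in WT. Whether each library stands for its own mouse or culture is not stated in the labels. The p-values therefore measure only how these 6 samples vary, and that variation may be technical. In bulk RNA, fewer cells of a kind and less RNA per cell cannot be told apart.

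The 9 genes spanned a wide range of expression. In BMPR1a-deficient aTreg, Cd5 had the highest mean at 243 FPKM, followed by Ctla4 at 170, Lag3 at 55.0, Cd200 at 50.3, Pdcd1 at 49.8, Cd160 at 42.0, Btla at 15.0, Tigit at 7.80 and Havcr2 at 0.233 FPKM. In WT aTreg the order was Cd5 at 283, Ctla4 at 254, Lag3 at 71.7, Cd200 at 51.4, Btla at 25.9, Cd160 at 22.2, Pdcd1 at 16.7, Tigit at 9.23 and Havcr2 at 0.185 FPKM. Pdcd1 was thus in the fifth place in BMPR1a-deficient and in the seventh in WT aTreg, and Btla the reverse. Without BMPR1a-deficient replicate 1, Cd160 took the fifth place at 45.3 FPKM and Pdcd1 the sixth at 42.0 FPKM, with Btla still in the seventh. Among neighbours in the BMPR1a-deficient order, Lag3 overlapped Cd200, Cd200 overlapped Pdcd1 and Pdcd1 overlapped Cd160. In WT, Cd5 overlapped Ctla4, Btla overlapped Cd160 and Cd160 overlapped Pdcd1.

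**Figure D1:**
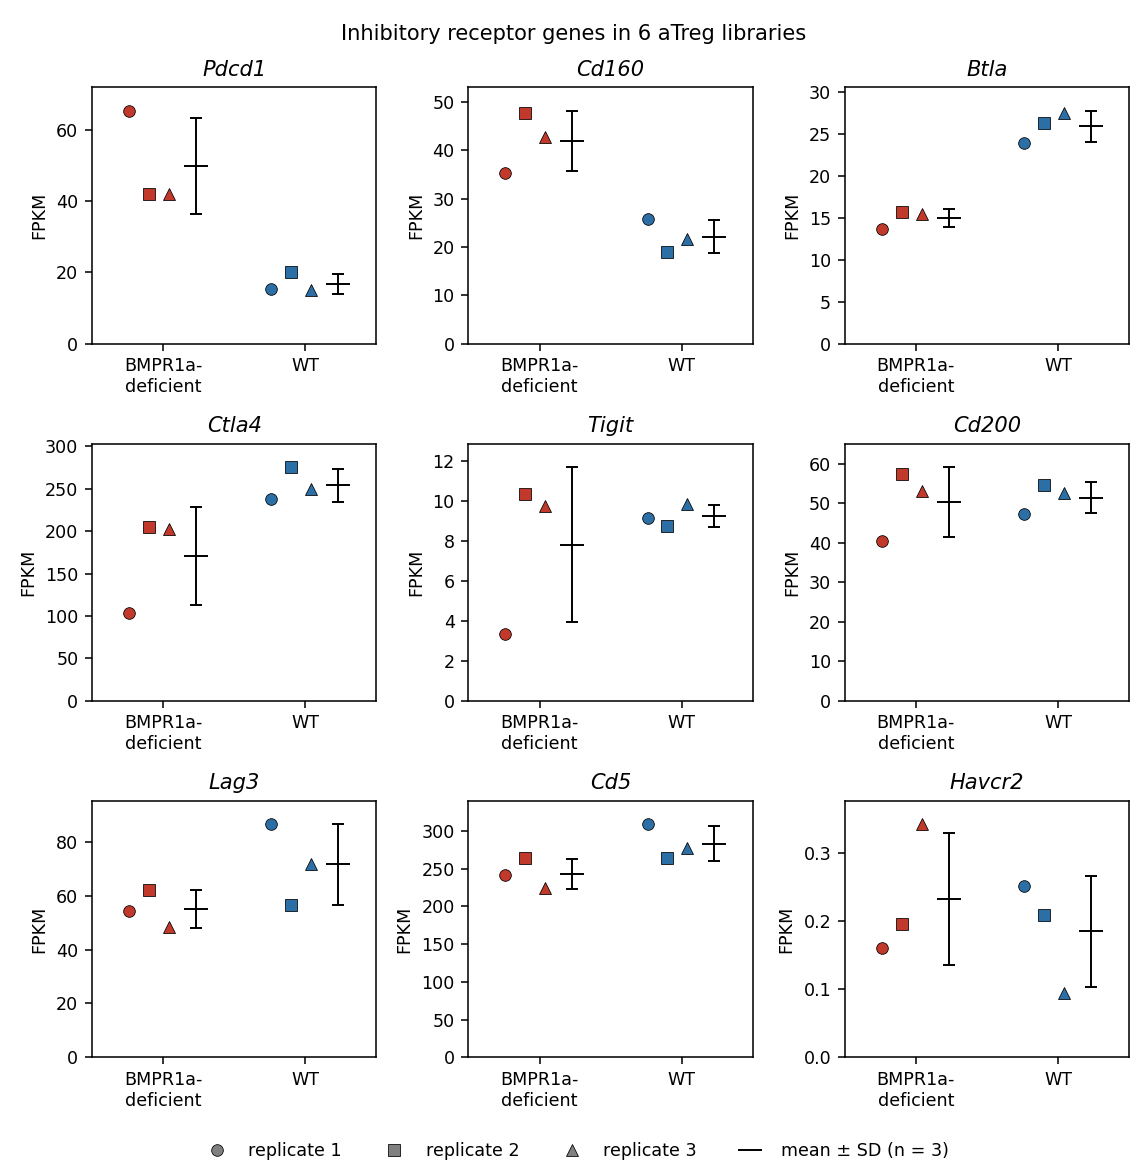
FPKM of each of the 9 receptor genes in every library, BMPR1a-deficient on the left and WT on the right of each panel, with a symbol per replicate and the mean ± SD beside it (n = 3); each vertical axis is linear and starts at 0. BMPR1a-deficient libraries lie above all WT libraries for Pdcd1 and Cd160 and below all of them for Btla and Ctla4, and BMPR1a-deficient replicate 1 (circles) is the lowest of the 6 libraries for Ctla4, Tigit, Cd200 and Btla and the highest for Pdcd1.

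Of the 9 genes, 8 had a mean of at least 1 FPKM and were tested, and 2 passed the threshold: Pdcd1 rose and Btla fell (limma, adjusted p under 0.05 over 13413 genes). Across all tested genes 143 passed, which is 1.07%. Of these 100 were higher (0.746%) and 43 lower (0.321%), a split of 88 to 70 after quantile normalization. Over the 8 receptors the median log2 fold change was -0.28, from 2 positive and 6 negative values, and over all genes tested it was 0.04. Without BMPR1a-deficient replicate 1 the receptors had a median of -0.057, from 4 positive and 4 negative values. Over all genes tested the median was then 0.069. Tigit and Cd200 turned positive in that fit, while Ctla4, Lag3, Btla and Cd5 stayed negative. The part of that library in the lean to negative values was not tested. An unadjusted p under 0.05 was reached by 3 of the 8 receptors and by 15.2% of all tested genes, 9.29% higher and 5.87% lower, and this is the share to read the list counts below against. Groups did not overlap for 4 of the 8, namely Pdcd1 and Cd160 on the higher side and Btla and Ctla4 on the lower side. The same held for 26.3% of all tested genes, 15.9% higher and 10.4% lower.

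Pdcd1 encodes PD-1, a receptor induced by antigen receptor signalling that recruits SHP-2 when it meets PD-L1 or PD-L2. It lies on chromosome 1 (ENSMUSG00000026285, 94038305 to 94052553, minus strand, GRCm38). Its FPKM was 65.3, 42.0 and 42.0 in BMPR1a-deficient and 15.2, 20.02 and 15.0 in WT aTreg. Each of the BMPR1a-deficient values was above the highest WT value, and replicate 1 of the BMPR1a-deficient group was the highest. The means were 49.8 ± 13.5 FPKM in BMPR1a-deficient and 16.7 ± 2.83 FPKM in WT aTreg (SD, n = 3 each), a ratio of 2.97, and the log2 fold change was 1.50 (SE 0.214, limma adjusted p = 0.0450). Without BMPR1a-deficient replicate 1 the log2 fold change was 1.29 and still passed (limma adjusted p = 0.0398). The call was lost without BMPR1a-deficient replicate 2 (limma adjusted p = 0.108) or 3 (0.129), without WT replicate 1 (0.145), 2 (0.127) or 3 (0.233), and when no filter on low values was set (0.0736).

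Btla encodes the B and T lymphocyte attenuator, which binds the herpesvirus entry mediator HVEM and recruits SHP-1 and SHP-2. It lies on chromosome 16 (ENSMUSG00000052013, 45224315 to 45257670, plus strand). Its FPKM was 13.7, 15.7 and 15.4 in BMPR1a-deficient and 23.9, 26.3 and 27.6 in WT aTreg. The 3 BMPR1a-deficient values lay close together and well below the WT values. The means were 15.0 ± 1.07 FPKM in BMPR1a-deficient and 25.9 ± 1.85 FPKM in WT aTreg (SD, n = 3 each). BMPR1a-deficient aTreg held 57.6% of the WT level, and the log2 fold change was -0.76 (SE 0.1003, limma adjusted p = 0.0388). Without BMPR1a-deficient replicate 1 it was -0.70 (limma adjusted p = 0.0423). The call was lost without BMPR1a-deficient replicate 2 (limma adjusted p = 0.119) or 3 (0.145), without WT replicate 1 (0.0888), 2 (0.151) or 3 (0.1995), and when libraries were scaled to 6 T cell genes (0.0515).

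Cd160 encodes a second receptor for HVEM, best known on natural killer cells and cytotoxic T cells. It lies on chromosome 3 (ENSMUSG00000038304, 96798763 to 96829351, minus strand). Its FPKM was 35.3, 47.8 and 42.8 in BMPR1a-deficient and 25.9, 19.0 and 21.6 in WT aTreg. The groups did not overlap. Means were 42.0 ± 6.28 FPKM in BMPR1a-deficient and 22.2 ± 3.47 FPKM in WT aTreg (SD, n = 3 each), a ratio of 1.89. The log2 fold change of 0.89 (SE 0.163) did not pass the threshold (limma adjusted p = 0.0778). It passed when only protein-coding genes were tested (limma adjusted p = 0.0323) and with weights for each library (0.00711), and without BMPR1a-deficient replicate 1 the fold change was 1.01 (0.0613). Exact two-sided permutation tests of the 6 values gave 0.1 for Pdcd1, Btla, Cd160 and Ctla4, the smallest p that 3 against 3 libraries allow.

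Some of the receptors are also made by other cells that a sort can carry along. Of 4 B cell markers 0 passed the threshold in limma, and their summed FPKM was 25.6 to 33.1 in BMPR1a-deficient and 17.1 to 34.6 in WT libraries. For 2 CD8 T cell markers the sum was 37.9 to 68.4 in BMPR1a-deficient and 32.0 to 41.8 in WT libraries, and Cd8a alone did not overlap, at 13.8, 17.2 and 29.1 FPKM in BMPR1a-deficient and 11.7, 9.56 and 8.80 FPKM in WT. The 3 natural killer markers summed to 3.05 to 8.36 FPKM in BMPR1a-deficient and 5.53 to 9.31 FPKM in WT libraries. Of these Ncr1 was at 0 in all WT libraries and at 0, 0.0222 and 0 FPKM in BMPR1a-deficient ones, and Klrb1c was at 0.598, 0.760 and 0.648 in BMPR1a-deficient and 0.126, 0.0727 and 0.0692 FPKM in WT. The 4 myeloid markers summed to 12.0 to 88.8 FPKM in BMPR1a-deficient and 21.3 to 104 FPKM in WT libraries, and the 3 dendritic cell markers to under 1 FPKM in each library. Other members of these lists overlapped. Cd8b1 was at 24.1, 26.9 and 39.3 FPKM in BMPR1a-deficient and 30.1, 23.1 and 23.2 in WT. Eomes, the largest part of the natural killer sum, was at 2.45, 7.58 and 4.72 FPKM in BMPR1a-deficient and 5.40, 6.16 and 9.24 in WT. The log2 fold change of Eomes was -0.49 (limma adjusted p = 0.546). Cd8a and Klrb1c thus lay on the same side as Pdcd1 and Cd160, while Cd8b1 and Eomes did not separate the groups. The part of these markers in those results was not tested.

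The stretch of 200 bases before the RefSeq start of Pdcd1, Btla and Cd160 is shown because these 3 genes had the smallest p-values among the receptors. All but Lag3 of the 9 receptors had an entry in the RefSeq promoter table of GRCm38.p6. Sequences run 5′ to 3′ on the strand of the gene, and capitals mark the NFAT core GGAAA and the SMAD box CAGAC, read on both strands. Cd160 has 2 windows in that table, and the first is shown.
Pdcd1, chr1:94052554-94052753, minus strand: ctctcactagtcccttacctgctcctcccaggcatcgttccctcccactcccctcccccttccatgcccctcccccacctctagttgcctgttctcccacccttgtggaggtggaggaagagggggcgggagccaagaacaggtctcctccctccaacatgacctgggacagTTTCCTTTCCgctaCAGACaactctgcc
Btla, chr16:45224137-45224336, plus strand: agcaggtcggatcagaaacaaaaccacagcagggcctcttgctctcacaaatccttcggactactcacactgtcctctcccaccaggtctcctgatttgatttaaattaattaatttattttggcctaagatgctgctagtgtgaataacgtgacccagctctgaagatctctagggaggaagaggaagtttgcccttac
Cd160, chr3:96829352-96829551, minus strand: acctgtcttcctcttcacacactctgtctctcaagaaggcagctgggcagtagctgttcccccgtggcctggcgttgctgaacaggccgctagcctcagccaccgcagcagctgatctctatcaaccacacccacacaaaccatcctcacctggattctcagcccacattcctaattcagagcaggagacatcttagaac
NFAT is the factor that calcium signals from the T cell receptor bring to the nucleus, and SMAD proteins carry the signals of BMP and TGF-beta receptors. The Pdcd1 window held 2 adjoining NFAT cores, beginning 28 and 23 bases before the start, and 1 SMAD box, beginning 14 bases before it. Neither motif was found in the windows of Btla and Cd160. Of 27025 promoters of the same length, 47.6% held the NFAT core and 35.4% the SMAD box. The AP-1 motif TGANTCA (in 5.55% of promoters) and the NR4A response element AAAGGTCA (1.06%) were in none of the 3 windows. Among the other 5 receptors in the table, an NFAT core was found once before Ctla4 and 2 times before Tigit, a SMAD box before Havcr2 and Cd200, and an AP-1 motif before Havcr2. A match is a run of letters and was not tested as a binding site.

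**Figure D2:**
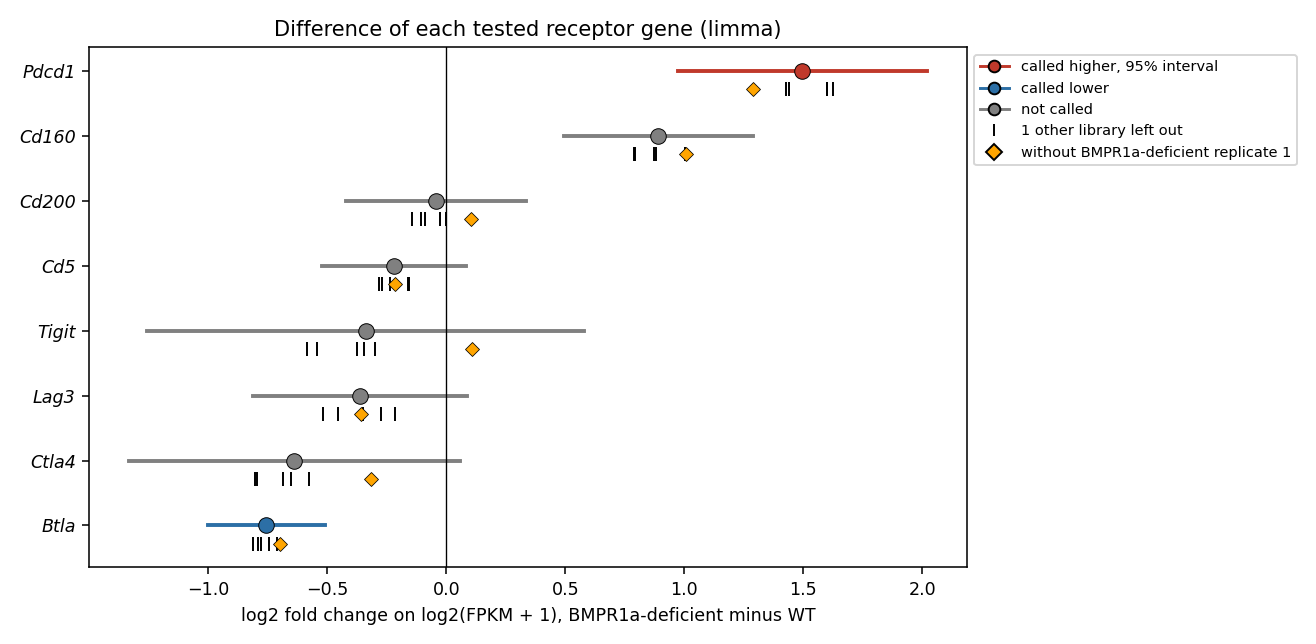
Log2 fold change of the 8 tested receptor genes on log2(FPKM + 1), BMPR1a-deficient minus WT, with its 95% interval from limma; red is called higher, blue called lower and grey not called, ticks give the value with each of 5 libraries left out and the orange diamond the value without BMPR1a-deficient replicate 1. Pdcd1 at 1.50 and Btla at -0.76 passed the threshold, and the diamond of Tigit and Cd200 lies on the other side of 0 from the value over all 6 libraries.

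Ctla4 encodes the CTLA-4 receptor on chromosome 1 (ENSMUSG00000026011, 60887000 to 60915832, plus strand). Its FPKM was 103, 204 and 203 in BMPR1a-deficient and 238, 275 and 249 in WT aTreg. All BMPR1a-deficient libraries were below all WT libraries, and replicate 1 held 50.8% of the mean of the other 2 libraries of its group. The log2 fold change was -0.64 (95% interval -1.33 to 0.06, limma adjusted p = 0.361). Without BMPR1a-deficient replicate 1 it was -0.315 (limma adjusted p = 0.158), so Ctla4 did not pass the threshold with or without that library. The low mitochondrial sum of the same library moves with these values, and its part in them was not tested.

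Tigit, on chromosome 16 (ENSMUSG00000071552, 43648867 to 43664146, minus strand), was at 3.34, 10.3 and 9.71 FPKM in BMPR1a-deficient and at 9.13, 8.73 and 9.83 FPKM in WT aTreg. BMPR1a-deficient replicate 1 was low, at 33.3% of the mean of replicates 2 and 3, and the other 5 libraries lay between 8.73 and 10.3 FPKM. The log2 fold change was -0.34 (95% interval -1.26 to 0.58, limma adjusted p = 0.672), and it turned to 0.11 without that library (0.495). Cd200, 124 kb from Btla on the same chromosome (ENSMUSG00000022661, 45382135 to 45409053, minus strand), was at 40.4, 57.4 and 53.0 FPKM in BMPR1a-deficient and at 47.1, 54.5 and 52.5 FPKM in WT aTreg. Its log2 fold change was -0.045 (95% interval -0.42 to 0.33, limma adjusted p = 0.900), and 0.10 without BMPR1a-deficient replicate 1 (0.563). The table held no other protein-coding gene between Btla and Cd200, and of these neighbours Btla alone passed the threshold. The difference between the 2 genes was not tested.

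Lag3 encodes a receptor for MHC class II molecules on chromosome 6 (ENSMUSG00000030124, 124904361 to 124911705, minus strand). It was at 54.3, 62.3 and 48.4 FPKM in BMPR1a-deficient and at 86.6, 56.7 and 71.7 FPKM in WT aTreg, and the groups overlapped through WT replicate 2. The log2 fold change was -0.36 (95% interval -0.81 to 0.09, limma adjusted p = 0.408). Cd5 encodes a surface receptor that dampens signals of the T cell receptor, on chromosome 19 (ENSMUSG00000024669, 10717116 to 10739002, minus strand). It was at 242, 264 and 224 FPKM in BMPR1a-deficient and at 309, 264 and 277 FPKM in WT aTreg, where BMPR1a-deficient replicate 2 and WT replicate 2 were almost equal. The log2 fold change was -0.22 (95% interval -0.52 to 0.08, limma adjusted p = 0.448). Both genes were as high in BMPR1a-deficient replicate 1 as in the rest of its group, at 98.1% (Lag3) and 99.0% (Cd5) of the mean of replicates 2 and 3.

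Havcr2 encodes TIM-3, a receptor of terminally differentiated and exhausted T cells, on chromosome 11 (ENSMUSG00000020399, 46454935 to 46481255, plus strand). It was at 0.160, 0.195 and 0.343 FPKM in BMPR1a-deficient and at 0.252, 0.209 and 0.0948 FPKM in WT aTreg. These levels stand for roughly 9 to 33 fragments per library, so it was barely detected and was below the filter. With no filter on low values the log2 fold change was 0.06 (limma adjusted p = 0.768).

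The make-up of the receptor transcripts does not depend on how libraries are scaled to each other. The 9 genes together gave 558, 704 and 639 FPKM in BMPR1a-deficient and 755, 725 and 725 FPKM in WT aTreg. Pdcd1 took 11.7%, 5.96% and 6.58% of that sum in BMPR1a-deficient and 2.02%, 2.76% and 2.07% in WT libraries. Cd160 took 6.33%, 6.78% and 6.70% in BMPR1a-deficient and 3.43%, 2.62% and 2.98% in WT libraries. For both genes the 3 BMPR1a-deficient shares were above the 3 WT shares. Btla took 2.37 ± 0.123% in BMPR1a-deficient and 3.54 ± 0.329% in WT (SD, n = 3 each). Ctla4 and Cd5 together made up 65.1 ± 2.78% of the sum in BMPR1a-deficient and 73.2 ± 1.09% in WT (SD, n = 3 each). Within that pair Cd5 took 43.3%, 37.5% and 35.1% in BMPR1a-deficient and 41.0%, 36.4% and 38.2% in WT libraries, which overlapped. Ctla4 took 18.6%, 29.0% and 31.8% in BMPR1a-deficient and 31.5%, 38.0% and 34.4% in WT libraries. The mean share of Ctla4 differed by -8.16 percentage points (BMPR1a-deficient minus WT), and by -4.22 without BMPR1a-deficient replicate 1. Because the receptors were chosen with earlier results known, these sums and shares carry no test.

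**Figure D3:**
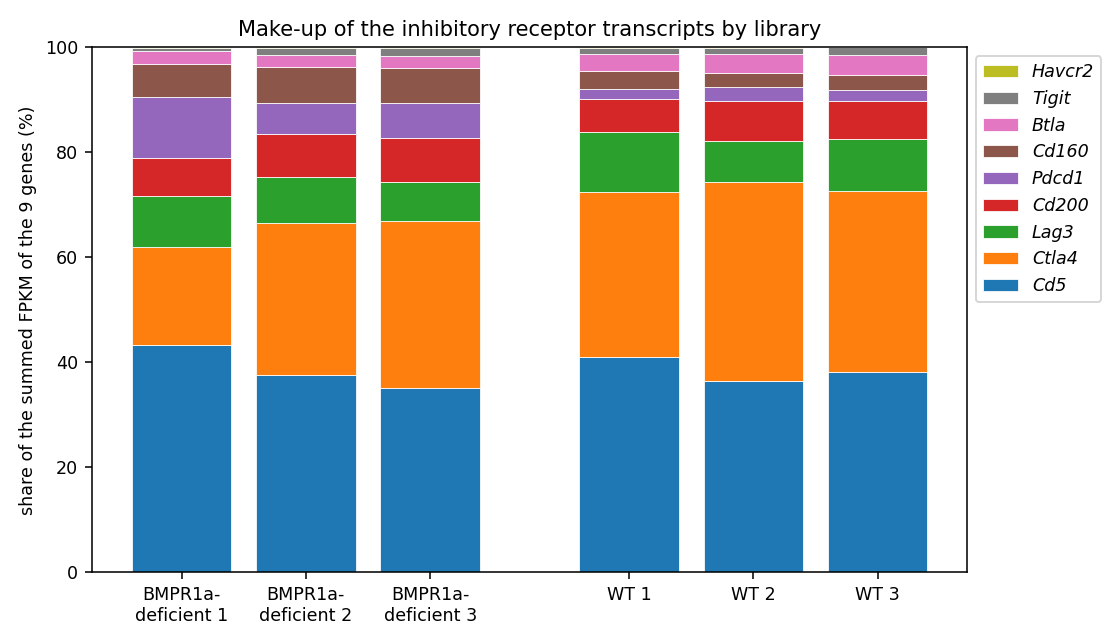
Share of each receptor gene in the summed FPKM of the 9 genes, in percent, for the 3 BMPR1a-deficient libraries on the left and the 3 WT libraries on the right. Pdcd1 (purple) and Cd160 (brown) are wider in each BMPR1a-deficient library, where Pdcd1 takes 5.96% to 11.7% against 2.02% to 2.76% in WT.

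Ligands and counter-receptors were read from the same fit. Of 15 listed genes 11 were tested and 0 passed the threshold in limma, while 2 higher and 1 lower had an unadjusted p under 0.05. Their median log2 fold change was 0.00. Pdcd1lg2, which encodes the PD-1 ligand PD-L2, was at 2.31, 2.92 and 3.14 FPKM in BMPR1a-deficient and at 1.18, 1.44 and 1.40 FPKM in WT aTreg (log2 fold change 0.69, limma adjusted p = 0.0940). Without BMPR1a-deficient replicate 1 the log2 fold change was 0.78 and passed (limma adjusted p = 0.0481). Its neighbour Cd274, which encodes PD-L1 22.8 kb away on chromosome 19, was at 11.4 ± 3.80 FPKM in BMPR1a-deficient and 11.6 ± 1.18 FPKM in WT aTreg (SD, n = 3 each). The ratio of Cd274 to Pdcd1lg2 was 3.05, 4.38 and 4.54 in BMPR1a-deficient and 10.1, 7.15 and 9.04 in WT libraries, with no overlap. This ratio is a description and was not tested, and Pdcd1lg2 stood at only about 60 to 190 fragments per library. Tnfrsf14, which encodes HVEM, was at 74.5, 42.4 and 48.7 FPKM in BMPR1a-deficient and at 37.4, 37.5 and 45.3 FPKM in WT aTreg. Its groups overlapped, and the high value was again BMPR1a-deficient replicate 1 (log2 fold change 0.42, limma adjusted p = 0.427; without it 0.18, adjusted p = 0.454).

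Btla and Cd160 bind the same ligand, HVEM, and were set against each other within each library. The ratio of Btla to Cd160 was 0.389, 0.329 and 0.360 in BMPR1a-deficient and 0.924, 1.39 and 1.27 in WT libraries. It averaged 0.359 ± 0.0302 in BMPR1a-deficient and 1.195 ± 0.241 in WT libraries (SD, n = 3 each). The pair was singled out after its values were seen, so the ratio is a description. Btla was the lower of the pair in each BMPR1a-deficient library and the higher of the pair in WT replicates 2 and 3.

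Pvr, the ligand of TIGIT and CD226, was at 9.17, 13.7 and 12.6 FPKM in BMPR1a-deficient and at 15.5, 15.8 and 16.2 FPKM in WT aTreg (log2 fold change -0.41, limma adjusted p = 0.300; -0.25 and 0.156 without BMPR1a-deficient replicate 1). The CTLA-4 ligand gene Cd80 was at 6.79 ± 1.23 FPKM in BMPR1a-deficient and 4.29 ± 1.42 FPKM in WT aTreg (SD, n = 3 each). The other, Cd86, was at 4.06 ± 0.404 FPKM in BMPR1a-deficient and 3.37 ± 0.228 FPKM in WT aTreg (SD, n = 3 each). Lgals9, which encodes the TIM-3 ligand galectin-9, was at 127 ± 29.1 FPKM in BMPR1a-deficient and 125 ± 5.27 FPKM in WT (SD, n = 3 each), far above Havcr2 itself. Cd200r1 was at 2.77 ± 1.01 FPKM in BMPR1a-deficient and 3.13 ± 0.664 FPKM in WT aTreg, and Nectin2 was below the filter.

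Of the 13 costimulatory and related genes 1 was higher and 0 were lower in limma, beside 2 higher and 1 lower at an unadjusted p under 0.05, with a median of -0.20. The member that rose was Tnfrsf9, which encodes the costimulatory receptor 4-1BB, at 224, 263 and 242 FPKM in BMPR1a-deficient and 129, 142 and 127 FPKM in WT aTreg (log2 fold change 0.87, limma adjusted p = 0.0380). The call held without BMPR1a-deficient replicate 1 and was lost without any 1 of the other 5 libraries (limma adjusted p up to 0.190). Cd28 and Icos flank Ctla4 on chromosome 1, 114 kb and 62.1 kb away. Cd28 was at 42.8, 77.0 and 67.8 FPKM in BMPR1a-deficient and at 83.0, 83.1 and 83.1 FPKM in WT aTreg (log2 fold change -0.45, limma adjusted p = 0.400), with no overlap. Icos was at 32.5 ± 7.29 FPKM in BMPR1a-deficient and 38.8 ± 2.14 FPKM in WT aTreg (SD, n = 3 each). The ratio of Ctla4 to Cd28 was 2.42, 2.65 and 2.99 in BMPR1a-deficient and 2.86, 3.31 and 3.00 in WT libraries, which overlapped. The low value of BMPR1a-deficient replicate 1 thus appeared in Ctla4, Cd28 and Icos alike, and without it the log2 fold change was -0.20 for Cd28 (limma adjusted p = 0.251) and -0.084 for Icos (0.612). For Tigit and its competitor Cd226 the ratio was 0.648, 1.08 and 0.907 in BMPR1a-deficient and 1.06, 0.618 and 0.813 in WT libraries.

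**Figure D4:**
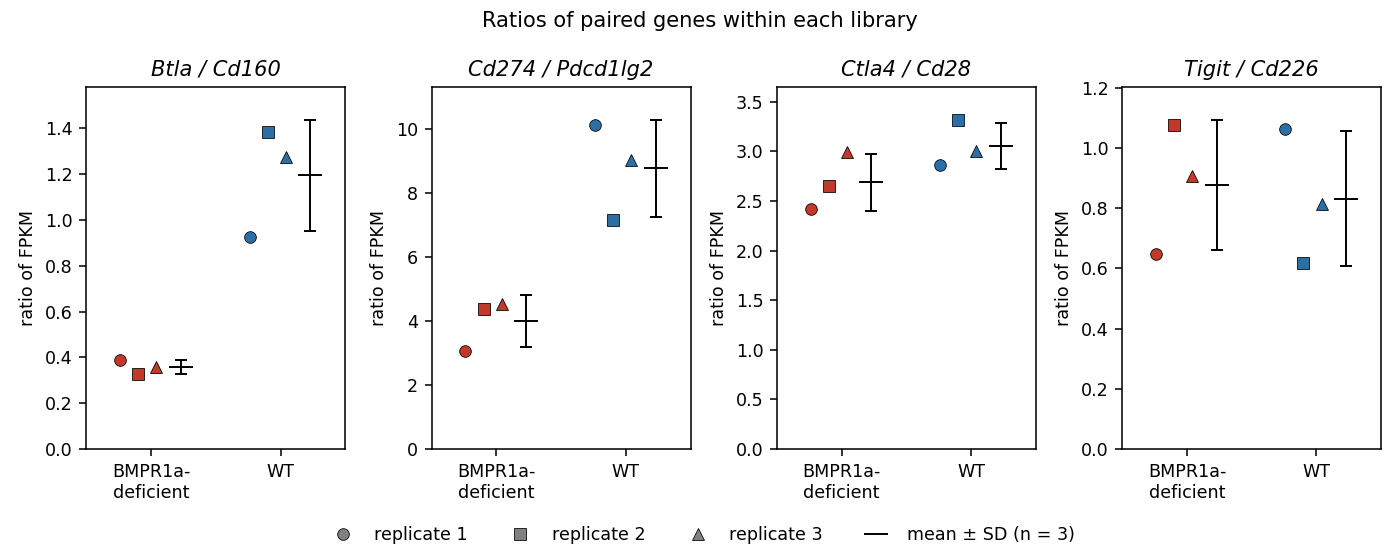
Ratio of FPKM of paired genes within each library, BMPR1a-deficient on the left and WT on the right of each panel, with a symbol per replicate and the mean ± SD beside it (n = 3). The groups are apart for Btla to Cd160 (0.329 to 0.389 against 0.924 to 1.39) and for Cd274 to Pdcd1lg2 (3.05 to 4.54 against 7.15 to 10.1), and they overlap for Ctla4 to Cd28 and for Tigit to Cd226.

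Among 19 further inhibitory receptors and regulators 17 were found and 13 tested, of which 1 was higher and 0 were lower in limma, beside 4 higher and 3 lower at an unadjusted p under 0.05, with a median of -0.08. Cd72, known as an inhibitory coreceptor of B cells, rose to 72.0, 73.7 and 72.1 FPKM in BMPR1a-deficient aTreg, against 45.8, 36.5 and 40.9 FPKM in WT (log2 fold change 0.81, limma adjusted p = 0.0405). The B cell marker sums are given above, and the part of B cells in the rise of Cd72 was not tested. Cd72 no longer passed with each of the 6 libraries left out in turn (limma adjusted p 0.0507 to 0.1995), with upper-quartile scaling (0.0611) and with quantile normalization (0.0599). Vsir, which encodes the checkpoint receptor VISTA, was at 57.4 ± 7.67 FPKM in BMPR1a-deficient and 68.7 ± 7.93 FPKM in WT aTreg (SD, n = 3 each). Cd6, the neighbour and relative of Cd5, was at 183 ± 21.9 FPKM in BMPR1a-deficient and 216 ± 17.3 FPKM in WT aTreg (SD, n = 3 each). The ratio of Cd5 to Cd6 was 1.19, 1.42 and 1.40 in BMPR1a-deficient and 1.32, 1.32 and 1.30 in WT libraries.

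Of 23 genes that carry or limit inhibitory signals 0 passed the threshold in limma, with 2 higher and 1 lower at an unadjusted p under 0.05 and a median of -0.01. Ptpn6, which encodes SHP-1, was at 417, 288 and 301 FPKM in BMPR1a-deficient and 247, 269 and 242 FPKM in WT aTreg (log2 fold change 0.39, limma adjusted p = 0.358; 0.22 and 0.225 without BMPR1a-deficient replicate 1). Ptpn11, which encodes SHP-2, was at 27.0 ± 2.14 FPKM in BMPR1a-deficient and 22.8 ± 1.24 FPKM in WT aTreg (SD, n = 3 each). Of 23 tested transcription factors linked to these receptors 1 was higher and 0 were lower in limma, beside 5 higher and 3 lower at an unadjusted p under 0.05, with a median of 0.06. Nr4a3, an immediate early gene of T cell receptor signalling, rose to 39.2, 45.0 and 45.0 FPKM in BMPR1a-deficient aTreg, against 23.0, 26.3 and 23.9 FPKM in WT (log2 fold change 0.79, limma adjusted p = 0.0380). It too passed without BMPR1a-deficient replicate 1 and in none of the fits without 1 of the other 5 libraries (limma adjusted p up to 0.198). Tox, a factor of exhausted T cells, was at 14.5 ± 2.92 FPKM in BMPR1a-deficient and 10.8 ± 1.67 FPKM in WT aTreg (SD, n = 3 each). Nfatc1, known to bind near Pdcd1, was at 43.8 ± 7.33 FPKM in BMPR1a-deficient and 42.9 ± 5.05 FPKM in WT aTreg (SD, n = 3 each).

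The genes most like Pdcd1 and Btla were sought among 8145 protein-coding genes with a mean of at least 5 FPKM, by the root mean square distance between log2(FPKM + 1) values centred over the 6 libraries. Nearest to Pdcd1 were Capn3 (distance 0.146), Mtmr9 (0.168) and Myo1e (0.171). Capn3, which encodes a calpain protease, was at 39.7, 32.9 and 32.6 FPKM in BMPR1a-deficient and at 11.7, 15.6 and 12.5 FPKM in WT aTreg (limma adjusted p = 0.0191). Its call was lost without any 1 library other than BMPR1a-deficient replicate 1 (limma adjusted p up to 0.127). Capn3 was picked for its likeness to a called gene, so its p is no separate support. Mtmr9 (limma adjusted p = 0.0639) and Myo1e (0.0572) did not pass the threshold. Nearest to Btla were Icam2 (0.065), Adora2a (0.066) and Tmem63a (0.07). Adora2a, which encodes an inhibitory adenosine receptor, was at 4.49, 5.62 and 5.25 FPKM in BMPR1a-deficient and at 7.66, 8.98 and 9.03 FPKM in WT aTreg. Adora2a (limma adjusted p = 0.0767), Icam2 (0.0749) and Tmem63a (0.0707) did not pass the threshold. They were picked for their likeness to Btla, so their values are no separate support. For Cd160, looked up after its values were seen, the nearest of these genes were Tnfsf14 (0.088), Klf10 (0.105) and Ikzf2 (0.112). Tnfsf14 encodes the HVEM ligand LIGHT. Tnfsf14 was at 6.83, 8.62 and 8.50 FPKM in BMPR1a-deficient and at 5.13, 3.82 and 4.03 FPKM in WT aTreg (log2 fold change 0.755, limma adjusted p = 0.0849).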

How the data were processed

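RNA was sequenced from 3 BMPR1a-deficient and 3 WT libraries of sorted aTreg. The authors deposited one table of FPKM values, one column per library. TopHat2, Cufflinks, Cuffdiff and the build GRCm38.p4 are named per the submitters' processing notes, without versions. The gene annotation and how strands were counted is not given in the sources used here. Symbols and coordinates came from GENCODE M21 (GRCm38), which named 24876 of 25759 identifiers (96.6%). Column names gave the sample of each column. Depth was estimated from the smallest steps of FPKM times length in 6424 genes.

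The test was limma 3.58.1 (R 4.3.3) with the eBayes trend, on log2(FPKM + 1) of genes with a mean of at least 1 FPKM. It was two-sided, with Benjamini-Hochberg over all 13413 genes at 0.05. The fit was also run on simulated data with independent noise in each library. That simulation held no library that stood apart, so it does not cover this feature of the data. The receptors and lists were chosen with earlier results of these data known. The text names the 9 receptors, list genes past the threshold, their direct partners and the nearest genes of called receptors; Bmpr1a and the marker genes are checks, and any other gene is marked as chosen after its values were seen. Alternatives varied pseudocount, filter, scaling, eBayes, weights, block, biotypes and each library left out. A search of the receptor proteins for inhibitory motifs was not run.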

Additional observations from a re-analysis of the deposited data

How the results depend on the processing

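Over 18 alternatives the log2 fold change of Pdcd1 stayed between 1.29 and 1.62 and that of Btla between -0.81 and -0.70. An unadjusted p under 0.05 in limma was reached by 3 or 4 receptors, beside 9.18% to 29.8% of all genes tested. The number of receptors called, 2 of 8, was 1 with no filter on low values, 1 with scaling to T cell genes and 0 with a replicate block (4 at an unadjusted p under 0.05), but 3 with array weights and 3 with protein-coding genes only, and it ranged from 0 to 2 when a library was left out. The number of all genes called, 143, was 1240 with array weights, 296 with protein-coding genes only and 10 with a replicate block, and it ranged from 14 to 210 when a library was left out. Fits without a library have fewer samples, and the number of all genes called rose to 210 in the fit without BMPR1a-deficient replicate 1. The cause of these shifts was not tested. The sign turned for Tigit (0.071 with array weights, -0.584 to 0.109 with a library left out) and for Cd200 (0.113, and -0.146 to 0.102), on each occasion of a library left out only without BMPR1a-deficient replicate 1. The summed FPKM of the 9 receptors had a log2 ratio of -0.21, between -0.30 and -0.13 under the alternatives. Whether replicate numbers pair the libraries was not settled. Same-numbered deviations correlated at 0.01, 0.064 and 0.052, and those with unlike numbers at -0.093 to 0.041. Of 6 libraries, 4 correlated best with their own number. The replicate block ended the calls of Pdcd1 (limma adjusted p = 0.149), Btla (0.124), Tnfrsf9 (0.144), Cd72 (0.152), Nr4a3 (0.127) and Capn3 (0.116). Without counts, low genes such as Havcr2 carry no counting interval.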
